A study of Drosophila melanogaster with 16 samples.

Results

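The genes described here encode seminal fluid proteins of Drosophila melanogaster, which males transfer to females with sperm. They were chosen by name: symbols that begin with Acp, Sfp or Mst57D followed by a map position, together with Ebp, EbpII, Dup99B and SP, and without the cuticle gene Acp65Aa. This gave 52 genes of the 17489 with a row in the count tables, and all 52 had at least 1 count in some library. The rule reads no measured value, though it was set with earlier results of these data known.

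RNA was sequenced from heads of adult males in 16 libraries, and the study asked how dietary sugar changes RNA in sweet taste cells. Every fly had the genotype Gr5a>UAS-Rpl3-3XFLAG, in which the Gr5a driver, active in sweet taste neurons, directs expression of a FLAG-tagged ribosomal protein. In translating mRNA affinity purification, tagged ribosomes are pulled down from the lysate and their RNA is sequenced (the Gr5a fraction), beside total RNA of the same kind of lysate (the input). Males were collected 2 days after eclosion, kept in vials of 35 and placed on a diet at day 5. The 7-day groups were collected at day 12 and the 14-day groups at day 19. The labels give no collection day for the group with 3 days of sugar. Each replicate pooled 300 heads, which were separated from frozen flies with chilled sieves. SD was a sugar diet with 30% sucrose and CD a control diet with 5% sucrose. The Gr5a fraction was measured after 7 days on SD followed by 7 days on CD (SD>CD, n = 2), after 7 days on CD followed by 7 more on CD (CD>CD, n = 2), after 3 days on SD (SD3, n = 2), after 7 days on SD (SD7, n = 2) and after 7 days on CD (CD7, n = 3). The input was measured for SD7 (n = 2) and CD7 (n = 3). The titles of both SD>CD libraries read CD>CD, with the numbers 3 and 4, and only their condition label names the sugar diet, so each result on SD>CD rests on that label. The count tables carry sample numbers in separate ranges, with the day-7 libraries in one and SD3, CD>CD and SD>CD in the other, so SD3 against CD7 and CD>CD against CD7 cross these ranges while SD>CD against CD>CD does not.

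The accessory glands, the ejaculatory duct and the ejaculatory bulb make most seminal fluid proteins. Together these proteins change the behavior and physiology of the mated female, support sperm storage and form the mating plug. All of these organs lie in the abdomen, whereas the labelled tissue here was the head. All of the 52 genes are annotated as protein coding, 23 of them on chromosome arm 2L, 10 on 2R, 9 on 3L and 10 on 3R. Several sit side by side: Mst57Dc, Sfp96F, Mst57Db and Mst57Da occupy 2579 bases of 3R (positions 25829321 to 25831899, minus strand, BDGP6), and Sfp24Ba, Sfp24Bd, Sfp24Bb and Sfp24Bc occupy 2605 bases of 2L (positions 3667977 to 3670581). Reads were counted by strand. On the same strand only Sfp87B shares its position with another gene (svp), and 16 members overlap a gene on the other strand.

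Gene counts per library ranged between 22901154 and 55290069. The SD>CD libraries had 10527 and 10547 genes with 10 or more counts, below the 11886 to 13884 of the other 14 libraries. As a marker of head, photoreceptor genes summed to between 12333 and 37709 CPM (counts scaled to 1000000 gene counts per library) across the libraries. The sweet taste list was 9.27-fold higher in the pulldown than in total RNA of CD7, at low mean levels of 15.0 and 1.62 CPM. Lists of organs outside the head were counted as well. In CD7 the testis list averaged 1939 CPM in the input and 752 CPM in the pulldown, and the midgut list 1476 and 5100 CPM. Input SD7 replicate 1 was low not only in the seminal fluid protein genes but also in the testis list (647 CPM, against 1415 CPM in replicate 2) and the midgut list (232 CPM, against 683 CPM in replicate 2). Because these are bulk samples, fewer cells of a type and less RNA per cell cannot be told apart.

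Seminal fluid protein RNA was counted in every head library, and its summed level differed widely between groups. The 52 genes together had 2.10 and 2.75 CPM in SD>CD, against 136 and 235 CPM in CD>CD. They had 356 and 292 CPM in SD3, 853 and 437 CPM in SD7, and 482, 655 and 554 CPM in CD7 of the Gr5a fraction. In the input the sums were 415 and 1144 CPM in SD7, against 2333, 1772 and 2336 CPM in CD7. The SD>CD libraries thus lay below all others and the CD7 input libraries above all others, while SD7 and CD7 of the Gr5a fraction overlapped.

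**Figure D1:**
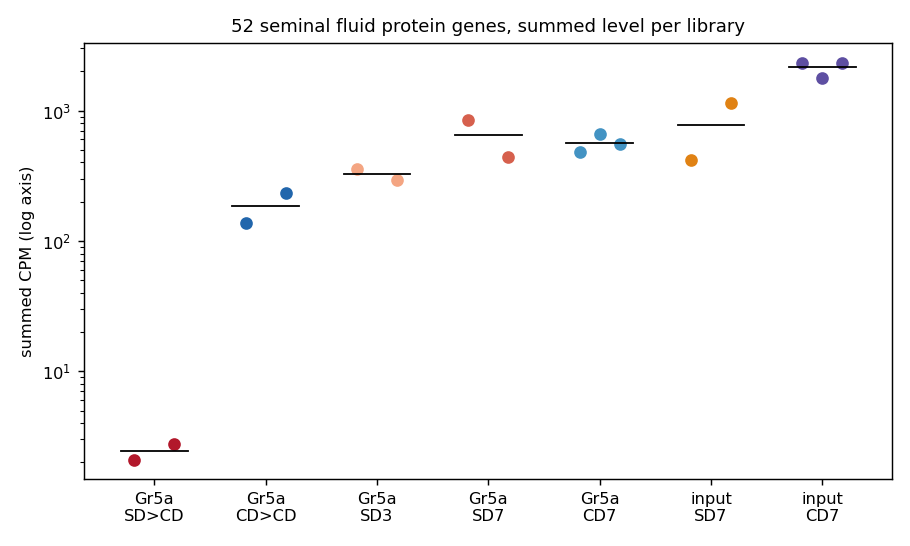
Summed level of the 52 seminal fluid protein genes (y axis, CPM on a log axis) in each library (points) by group (x axis), with the group mean as a bar. The 2 SD>CD libraries sit at 2.10 and 2.75 CPM, against 136 and 235 CPM in CD>CD, and the 3 input CD7 libraries sit between 1772 and 2336 CPM.

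Ebp and Acp36DE had the largest shares of this RNA in the day-7 libraries. Ebp took a mean of 16.6% of member counts in the input and 18.4% in the Gr5a fraction, and Acp36DE 12.7% and 16.2%. Mst57Da took 6.65% and 7.53%. Ebp, a mating plug protein of the ejaculatory bulb, had 0.126 and 0.131 CPM in SD>CD, 25.3 and 34.6 in CD>CD, 54.8 and 47.9 in SD3, 161 and 79.1 in SD7 and 85.3, 135 and 92.7 in CD7 of the Gr5a fraction. Its input level was 67.5 and 193 CPM in SD7, against 387, 311 and 372 CPM in CD7. Ebp therefore followed the same order of groups as the sum. Acp36DE, a glycoprotein needed for sperm storage, had 0.252 and 0.393 CPM in SD>CD, 23.3 and 30.2 in CD>CD, 56.3 and 49.0 in SD3, 139 and 58.1 in SD7 and 82.2, 118 and 91.8 in CD7 of the Gr5a fraction. In the input it had 44.2 and 132 CPM in SD7, against 341, 248 and 295 CPM in CD7. Mst57Da, which encodes a small accessory gland peptide, had 0.0421 and 0 CPM in SD>CD, 10.7 and 21.8 in CD>CD, 28.3 and 23.9 in SD3, 57.5 and 36.5 in SD7 and 31.2, 46.8 and 49.4 in CD7 of the Gr5a fraction. Its input level was 24.8 and 87.8 CPM in SD7, against 128, 124 and 167 CPM in CD7. All 3 genes, which mark the male tract, thus moved with the sum.

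Per kilobase of exon, the small peptide genes led. In the CD7 input, Mst57Db had 778 ± 123 CPM per kilobase, followed by Acp95EF at 594 ± 100, Acp98AB at 560 ± 119 and Mst57Da at 429 ± 72.8 (SD, n = 3). At 1 SD each of these overlapped the others, except that Mst57Db lay above Mst57Da. All were measured in the same 3 libraries, so this spread between libraries does not measure the spread of their differences. The order of these genes was not tested. Ebp had 233 ± 26.4 CPM per kilobase and Dup99B, a peptide of the ejaculatory duct related to sex peptide, 221 ± 24.6, which also overlapped. SP, the sex peptide that lowers remating and raises egg laying, had 109 ± 21.5 CPM per kilobase. At the other end, Sfp79B never exceeded 10 counts in a library and was the only member that passed neither filter on low counts. Sfp33A4 and Sfp36F passed in the day-7 libraries only, so 51 members were tested there and 49 in the Gr5a fraction across diets.

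**Figure D2:**
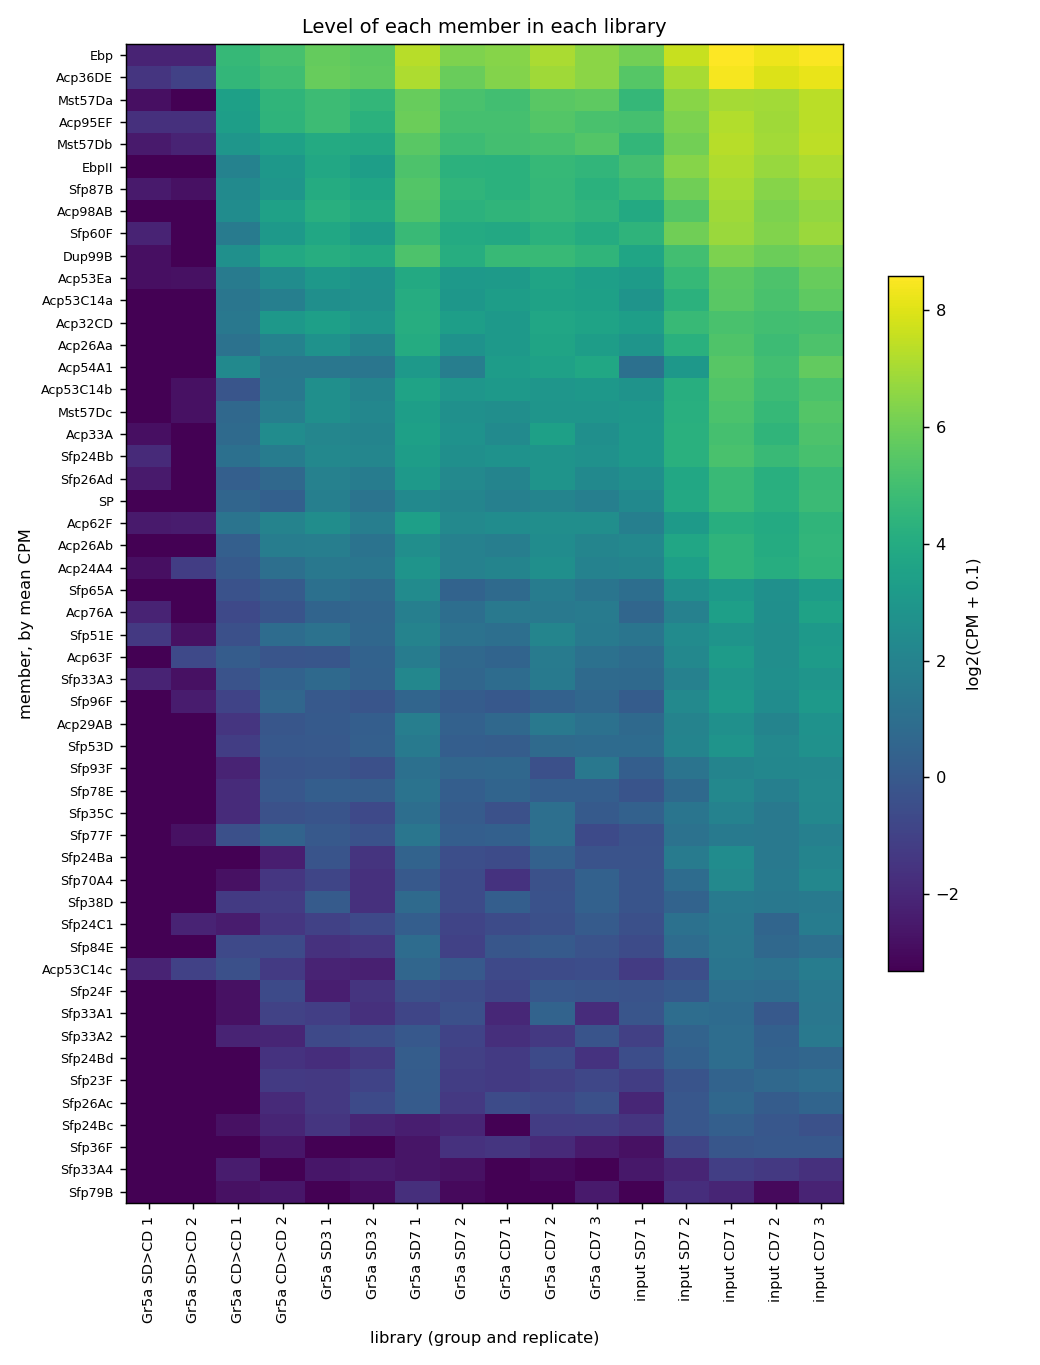
Level of each of the 52 members (rows, ordered by mean CPM) in each of the 16 libraries (columns) as log2(CPM + 0.1). Rows keep a similar order from column to column, and the 2 SD>CD columns at the left are dark throughout.

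Across the 16 libraries the members varied together. The correlation (Pearson) of each member's log2(CPM + 0.1) with the log2 summed CPM of the other members had a median of 0.96 over 16 libraries and of 0.97 over the 14 libraries without SD>CD. The values were lowest for Sfp79B at 0.51, Acp53C14c at 0.60 and Sfp33A4 at 0.61. These figures are descriptions: the libraries share flies, lysates and groups, and low counts limit them for Sfp79B and Sfp33A4. Acp53C14c, with 0.78 over the 14 libraries, was better covered in the input, with a level of 0.326 and 0.632 CPM in SD7, against 2.37, 2.12 and 3.07 CPM in CD7. In the Gr5a fraction it had 0.131 and 0.108 CPM in SD3 and 1.43 and 0.910 CPM in SD7, against 0.515, 0.559 and 0.614 CPM in CD7, so SD3 lay below CD7 and SD7 above it. These levels rest on few counts: 4 and 4 in SD3, 70 and 41 in SD7, and 20, 27 and 23 in CD7.

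The first comparison asked whether the pulldown from CD7 flies enriched or depleted these RNAs. In CD7, 47 of 51 tested members were lower in the pulldown (the Gr5a fraction) than in total RNA and none was higher (edgeR quasi-likelihood test, adjusted p under 0.1), whereas 22% of all 14185 genes were called lower and 24.3% higher. The median log2 fold change of the members was −1.93, against 0.02 over all genes. Summed, the members were 3.81-fold lower in the fraction, and each fraction library was below its same-numbered input, by 4.84-fold, 2.70-fold and 4.22-fold. The 4 members not called (Sfp84E, Sfp33A1, Sfp26Ac and Sfp24Bc) are all scarce and had log2 fold changes between −1.89 and −1.14.

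By role, all 10 members on the list of proteins that act in the mated female were lower in the CD7 fraction, as were all 3 of the bulb and duct and all 3 Mst57D genes, with median log2 fold changes of −1.74, −1.74 and −1.99. Within these lists the size of the change varied. SP had 3.61, 3.99 and 3.47 CPM in the CD7 fraction, against 25.9, 18.9 and 28.2 CPM in the CD7 input, so the groups lay far apart. Its log2 fold change was −2.69 ± 0.32 (SE, adjusted p = 0.00034). Among members that act on the mated female, the change of SP was followed by Acp26Ab at −2.18 ± 0.35 (adjusted p = 0.0014), Acp53Ea at −2.13 ± 0.33 (adjusted p = 0.0013) and Acp33A at −2.07 ± 0.36 (adjusted p = 0.0023). Acp26Aa (ovulin, which stimulates ovulation) had −1.77 ± 0.36, Acp76A (a serpin) −1.71 ± 0.37, Acp62F (a protease inhibitor) −1.65 ± 0.34 and Acp36DE −1.57 ± 0.37. The smallest changes in this set were Dup99B at −1.43 ± 0.32 and Acp29AB (a lectin with a role in sperm storage) at −1.40 ± 0.43, both called. Of the members of bulb and duct, EbpII fell by 2.50 and Ebp by 1.74 on the log2 scale (SE 0.32 and 0.34). Leaving Sfp33A4 aside, the largest decreases called were SP and then Sfp96F at −2.62 ± 0.48. Sfp33A4 was called at −4.75 ± 1.00, with 14, 12 and 12 counts in the CD7 input and 1 count in all over the 3 fraction libraries. It passed the filter on low counts only through the CD7 input, so its call, 1 of the 47, is no evidence of a decrease. Across the 51 members the fold change had a Spearman correlation of 0.33 with log2 exon length, a description over genes that share libraries.

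In SD7 the same comparison gave fewer calls. Here 3 of 51 members were lower in the Gr5a fraction than in input RNA and none higher, against 7.95% lower and 10.8% higher among all genes, and the median log2 fold change was −0.47. The members called were SP (−1.23 ± 0.37, adjusted p = 0.059), EbpII (−1.15 ± 0.38, adjusted p = 0.079) and Sfp60F (−1.17 ± 0.40, adjusted p = 0.087), and none of these passed at 0.05. The sums did not order by fraction, with 853 and 437 CPM in the SD7 fraction against 415 and 1144 CPM in the SD7 input. The same-numbered SD7 libraries of fraction and input deviated in opposite directions (correlation −0.26), and these sums are not given as pairs. A block with the SD7 numbers crossed, chosen after seeing the data, called 10 members lower and 1 higher in SD7, against 12.7% and 15% of all genes, and 27 higher in the interaction of diet and fraction, against 7.2%. Without a block, the call count ranged from 0 to 9 when single libraries were left out: it was 9 without input SD7 replicate 1, 0 without input SD7 replicate 2 or without Gr5a SD7 replicate 2, and 1 without Gr5a CD7 replicate 3 or any 1 of the input CD7 libraries. Tested as an interaction, diet and fraction gave 0 calls among 51 members with edgeR, against 0% of all genes. At an unadjusted p under 0.05 there were 28 members, beside 9.81% of all genes, and DESeq2 called 2 of 52 members higher, against 0.081% of all genes. Of the 51 interaction estimates 50 were positive, with a median of 1.40 on the log2 scale.

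The next question was whether 7 days of sugar diet changed these RNAs in whole head lysate. In the input, all 51 tested members had lower levels in SD7 than in CD7 by the point estimate, with a median log2 fold change of −1.28 against 0.02 over all genes, but edgeR called none. Of all genes edgeR called 0.0705%, 0.0423% lower and 0.0282% higher. At an unadjusted p under 0.05 there were 35 members, beside 18.8% of all genes. DESeq2 called 31 of 48 members with an adjusted p lower, against 5.27% of all genes. For Mst57Db the SD7 input libraries had 23.8 and 67.0 CPM, against 161, 124 and 170 CPM in CD7. Those values do not overlap, and its log2 fold change was −1.64 ± 0.35 (adjusted p = 0.14). Acp36DE had −1.65 ± 0.43 (adjusted p = 0.17), Ebp −1.36 ± 0.39 (adjusted p = 0.19) and Mst57Da −1.22 ± 0.42 (adjusted p = 0.20). The SD7 replicates differed 2.76-fold in the summed level, and the edgeR count became 31 without input SD7 replicate 2, against 4.6% of all genes called lower there, and 12 without either Gr5a SD7 library. Beside this, the testis list was 1.88-fold lower and the midgut list 3.22-fold lower in SD7 input than in CD7 input, while the photoreceptor list was 1.10 times the CD7 level. The yolk protein genes Yp1, Yp2 and Yp3 summed to 51.1 to 150 CPM in SD7 input, against 423 to 1154 CPM in CD7 input, with none called. The part of these other tissues in the result was not tested.

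Within the Gr5a fraction, sugar diet for 3 or 7 days gave no call among the 49 tested members by edgeR. In SD3 the point estimate was below CD7 for 48 of 49 members, with a median log2 fold change of −0.75 against −0.08 over all genes. Whether SD3 and CD7 flies had the same age is not given by the labels. The share of all genes that edgeR called was 0.0436% lower and 0% higher. An unadjusted p under 0.05 was found for 11 members, beside 14.6% of all genes, and DESeq2 called 4 of 30 members with an adjusted p lower, against 2.82% of all genes. In SD7 the estimate was below CD7 for 8 of 49 members, with a median of 0.21 against 0.04 over all genes, and edgeR called 0% of all genes. Here 0 members had an unadjusted p under 0.05, beside 5.61% of all genes, and DESeq2 called 0 members, against 0.437% of all genes. SP, for instance, had 3.41 and 2.33 CPM in SD3, 4.99 and 4.15 CPM in SD7 and 3.61, 3.99 and 3.47 CPM in CD7. The SD3 values lay below those of CD7 and the SD7 values above, and neither difference passed the test (log2 fold changes −0.43 ± 0.32 and 0.29 ± 0.31, adjusted p = 0.53 and 0.94). With CD>CD in place of CD7 as the control for SD3, 1 member was called lower and 3 higher, against 14% and 9.05% of all genes. Leaving out single libraries gave 2 calls without either CD>CD library and 1 without either SD7 library of the fraction. Beside this, the 3 yolk protein genes were all called lower in SD3, with a sum of 19.8 to 22.7 CPM, against 364 to 541 CPM in CD7.

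**Figure D3:**
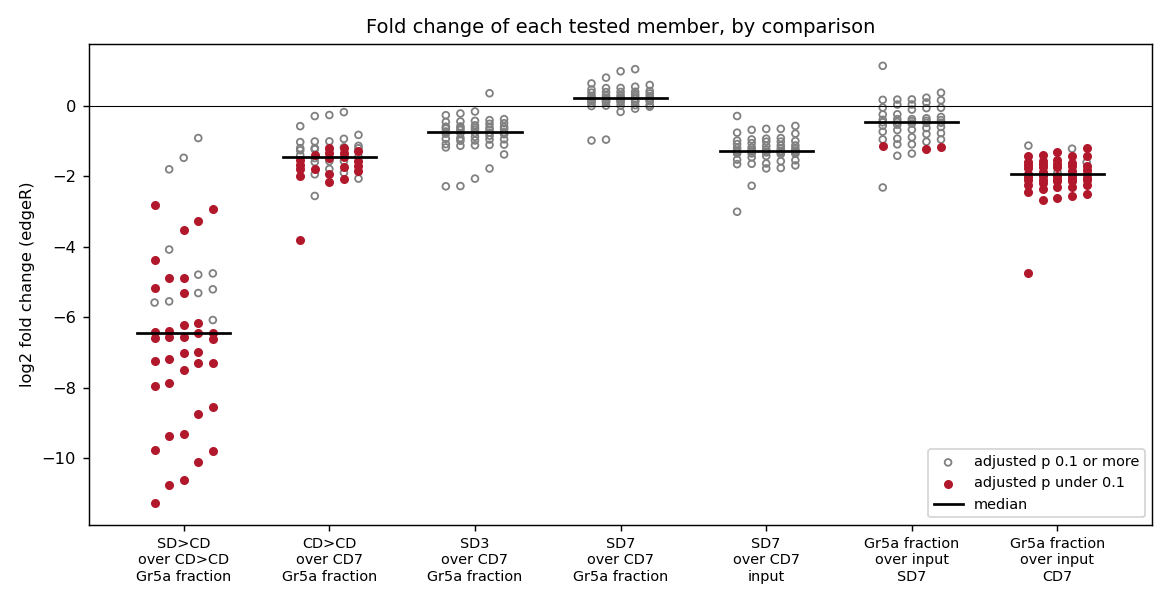
Log2 fold change of each tested member (points; y axis) in 7 comparisons (x axis), filled where the adjusted p was under 0.1 and open otherwise, with the median as a bar. Medians run from −6.44 for SD>CD over CD>CD through −1.45 for CD>CD over CD7 to 0.21 for SD7 over CD7, and no tested member was called higher in any of the 7.

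The CD>CD flies were 7 days older than the CD7 flies and had the same diet throughout. Of 49 tested members 21 were lower in CD>CD than in CD7 of the Gr5a fraction and none higher, against 6.46% lower and 7.65% higher among all genes, with a median log2 fold change of −1.45. Mst57Db had 7.57 and 11.1 CPM in CD>CD, against 33.0, 35.4 and 42.7 CPM in CD7 (log2 fold change −1.95 ± 0.25, adjusted p = 0.015). Ebp had −1.75 ± 0.31 (adjusted p = 0.021), Acp36DE −1.81 ± 0.34 (adjusted p = 0.022) and Mst57Da −1.35 ± 0.34 (adjusted p = 0.044). By role, 6 of 10 members that act in the mated female were called lower, and all 3 of the bulb and duct and all 3 Mst57D genes. The largest decreases called were Sfp24Ba (−3.81 ± 1.09, 3 counts in all over both CD>CD libraries), Acp53C14b (−2.17 ± 0.49) and Acp76A (−2.09 ± 0.56). The number of members called depended on single libraries: it was lowest without CD>CD replicate 1, which leaves 1 library in that group. Without CD7 replicate 3, 5 members were called, and 11 without CD7 replicate 1. Calls over all genes fell as well: 137 and 331 were lower in these fits, against 889 with all libraries. The libraries of this comparison also came from separate ranges of sample numbers, which cannot be told apart from age. Beside it, the testis list was 1.97-fold and the midgut list 1.62-fold lower in CD>CD than in CD7. The 3 yolk protein genes were all called lower, with a sum of 32.8 to 41.1 CPM in CD>CD, against 364 to 541 CPM in CD7. The photoreceptor list moved the other way: it was 1.54-fold higher in CD>CD, with 9 of 17 genes called higher and none lower. The part of these lists in the result was not tested.

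The largest difference was between flies returned from sugar to control diet and flies kept on control diet. Of 49 tested members, 38 were lower in SD>CD than in CD>CD and none was higher, against 13.1% lower and 0.211% higher among all 13758 genes. The median log2 fold change was −6.44, against −0.03 over all genes. All 52 members together had 50 and 63 counts in the SD>CD libraries, against 3151 and 6967 counts in the CD>CD libraries. Taken over both libraries of a group and scaled to their gene counts, this was a 79.2-fold lower level in SD>CD (95% exact counting interval 65.8 to 96.2, which leaves out the spread between libraries). The SD>CD libraries were both below both CD>CD libraries for 44 of the 52 members. The same count over all genes is not set beside it, so it is a description only. By role, all 10 members that act in the mated female, all 3 of the bulb and duct and all 3 Mst57D genes were called lower, with fitted median log2 fold changes of −7.25, −8.74 and −6.63.

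For many members nothing was detected after the return to control diet. In SD>CD, 28 members had 0 counts in both libraries, 13 had between 1 and 3 counts in all and 11 had 4 or more. Zero counts allow up to 3 counts over both libraries, or 0.0643 CPM. Against that floor Acp98AB, which had 5.49 and 11.4 CPM in CD>CD, was at least 137-fold lower in SD>CD. EbpII, with 0 counts against 329 in CD>CD, was at least 97.0-fold lower, and SP, with 0 against 66, at least 19.5-fold lower. For 4 of the 28 members the CD>CD level was itself at or under the floor. Mst57Da had 1 count in SD>CD against 894 in CD>CD, a ratio of 791 (interval 142 to 31276). Fitted fold changes of genes with no counts depend on the prior count, and with these genes at their bounds the median over the 49 members was −4.28.

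Members that were still counted in SD>CD gave measured ratios. Both SD>CD libraries held 3 counts of Ebp, and its level over both libraries was 238-fold lower than in CD>CD (interval 109 to 649; fitted log2 fold change −7.87 ± 0.56, adjusted p = 0.00025). Acp36DE had 6 and 9 counts in SD>CD and was 84.6-fold lower (interval 51.1 to 152; −6.41 ± 0.54, adjusted p = 0.00031). Mst57Db was 89.0-fold lower (interval 37.9 to 275) and Acp95EF 77.0-fold lower (interval 41.7 to 161). These intervals overlap, so the 4 genes are not ordered by them. Of the 11 members not called, 3 still had counts after the return. Acp53C14c (12 counts in SD>CD, 24 in CD>CD) and Acp63F (12 and 46) were 1.77-fold lower (interval 0.851 to 3.88) and 3.39-fold lower (interval 1.77 to 7.03), and Sfp24C1 had 3 counts against 10. The other 8 had 0 counts in SD>CD and at most 13 over both CD>CD libraries. Of the 113 counts left in SD>CD, 50 were in the 16 members that overlap a gene on the other strand, among them Acp36DE, Acp63F and Acp95EF.

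The difference did not rest on one library. The count of called members ranged from 28, without CD>CD replicate 2, to 40 when single libraries were left out, and DESeq2 called 39 lower, against 14.6% of all genes. Against SD7, the diet these flies had left 7 days earlier, 48 of 49 members were lower in SD>CD and none higher, with a median log2 fold change of −8.26, against 36.7% called among all genes, 25.1% lower and 11.6% higher. SD>CD and SD7 come from separate ranges of sample numbers and differ by 7 days in age. The effect of the return (SD>CD over CD>CD) was lower than the effect of sugar (SD7 over CD7) for 36 of 49 members and higher for none, against 11.9% and 0.4% among all genes.

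Other tissues moved beside the seminal fluid protein genes in SD>CD. The testis list, 32 genes, summed to 28.5 and 22.9 CPM in SD>CD, against 231 and 533 CPM in CD>CD, and 24 of its 31 tested genes were called lower. The midgut list, 35 genes, summed to 22.1 and 39.6 CPM in SD>CD, against 1880 and 4432 CPM in CD>CD, with 26 of 31 tested genes called lower. By contrast the photoreceptor list had 28777 and 28092 CPM in SD>CD, against 27379 and 22916 CPM in CD>CD, and the flight muscle list 1548 to 2147 CPM against 1241 to 1433 CPM, with no gene of either called. The Malpighian tubule list, 4 genes, summed to 173 to 193 CPM in SD>CD, against 143 to 212 CPM in CD>CD, with 1 gene called lower. The 3 yolk protein genes summed to 38.9 to 45.4 CPM in SD>CD, against 32.8 to 41.1 CPM in CD>CD, with none called. The part of RNA from abdominal organs in these results was not tested. Over the 16 libraries the log2 summed level of the members had a Spearman correlation of 0.94 with that of the testis list and of 0.11 with that of the midgut list, and over the 14 libraries without SD>CD the values were 0.92 and −0.33. The midgut list differed from the members in the pulldown: it was 3.46-fold higher in the Gr5a fraction than in total RNA of CD7, with 20 of 32 tested genes called higher and 2 lower.

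**Figure D4:**
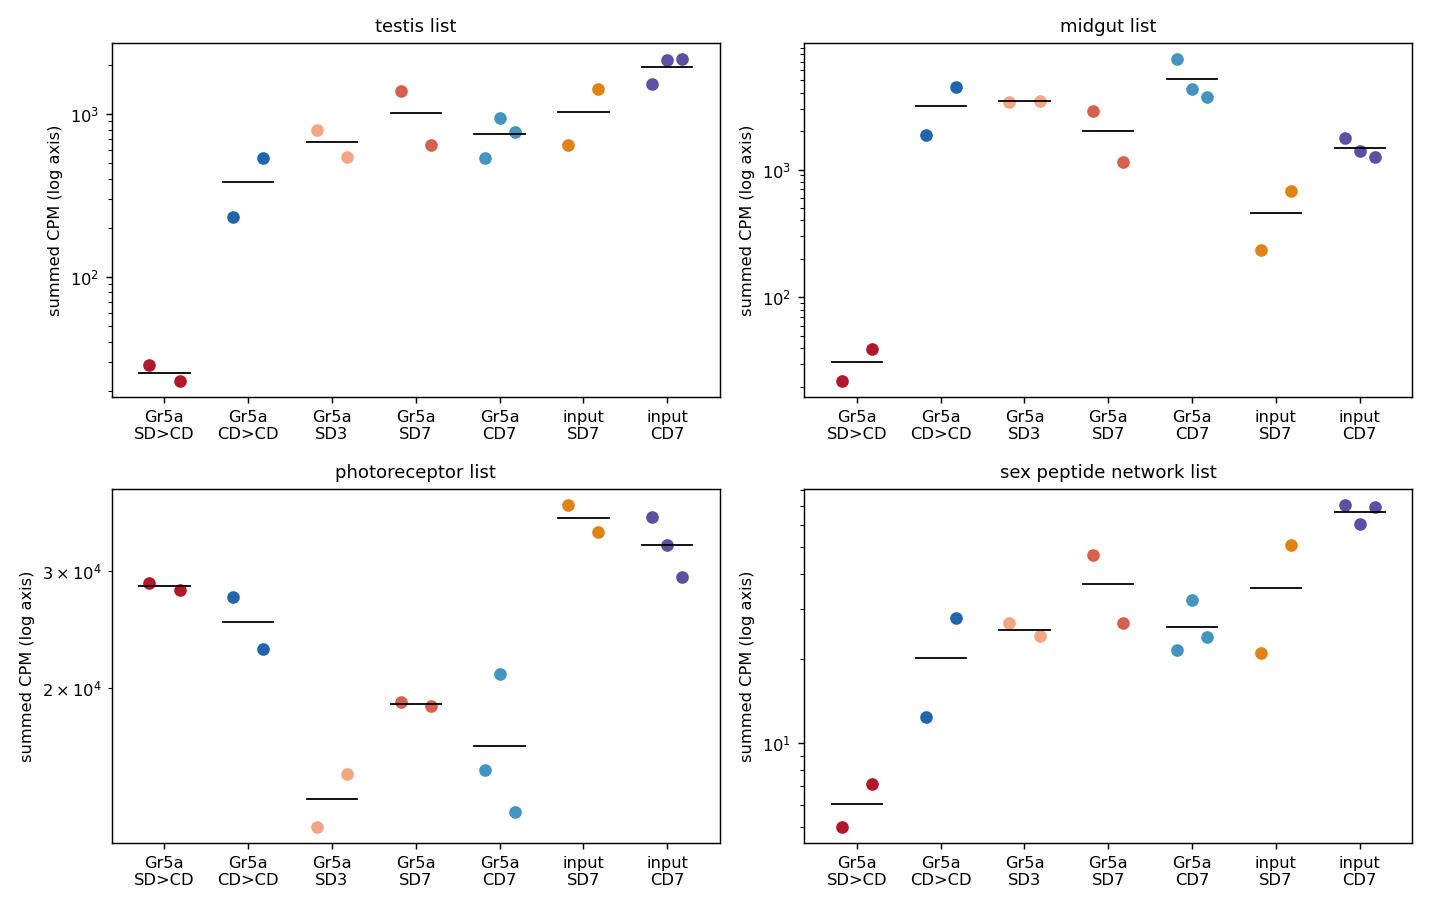
Summed level (y axes, CPM on log axes) of the testis, midgut, photoreceptor and sex peptide network lists in each library (points) by group (x axes), with group means as bars. Testis and midgut sums are lowest in the 2 SD>CD libraries (22.9 to 28.5 and 22.1 to 39.6 CPM), and photoreceptor sums in SD>CD (28092 and 28777 CPM) lie above those of CD>CD.

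Genes that work with sex peptide showed both patterns. The network that binds sex peptide to sperm was represented by 8 genes that are not members, of which 6 were lower in SD>CD than in CD>CD and none was higher. The serine protease family genes aqrs, Sems and intr had at most 1 count in each SD>CD library, as did CG9997, against 18 and 34, 10 and 26, 4 and 32, and 15 and 114 counts in CD>CD. Counts remained for lectin-46Cb, with 76 and 114 in SD>CD against 151 and 230 in CD>CD, and for antr, with 17 and 23 against 26 and 25. Neither of these last genes was called. In the wider list of male tract genes, 9 of 13 were lower in SD>CD and none higher: BG642163 and Spn38F had 0 counts in both SD>CD libraries, while Obp56g, an odorant binding protein gene, had 485 and 594 counts in SD>CD against 418 and 665 in CD>CD. Of the transcription factors of the tract, prd had 5 and 1 counts in SD>CD against 27 and 98 in CD>CD, and Abd-B, the Hox gene of the posterior abdomen, had 11 and 2 against 44 and 315. Both were called lower, whereas dve, with 1442 and 1362 counts against 1444 and 1926, was not. In the CD7 pulldown against input, prd was called lower like most members (log2 fold change −0.97 ± 0.32). Unlike them, Abd-B (1.05 ± 0.37) and dve (0.94 ± 0.11) were called higher there.

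The genes outside the list whose levels were most like the summed members, among 11484 with a mean of at least 1 CPM, were BG642163, Anp, CG18284, Cyp4g1, Spn38F, CG31213, CG16904, CG43147, CG30275 and CG42688. Their Pearson correlations over the 16 libraries ran from 0.998 for BG642163 to 0.994 for CG42688, and over the 14 libraries without SD>CD from 0.991 for BG642163 down to 0.963 for CG30275. Anp, which encodes the ejaculatory duct peptide andropin, had 0 counts in both SD>CD libraries, against 2.12 and 4.96 CPM in CD>CD. Cyp4g1, a cytochrome P450 gene of the oenocytes that make cuticular hydrocarbons, was the most abundant of the 10. It had 2.82 and 5.28 CPM in SD>CD, against 238 and 598 CPM in CD>CD. In SD7 it had 1630 and 947 CPM in the Gr5a fraction, against 1003 and 2873 CPM in the input. In CD7 it had 700, 1204 and 989 CPM in the Gr5a fraction, against 3741, 3413 and 3753 CPM in the input.

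The make-up of the member RNA was compared as each gene's share of all member counts in a library. Between SD7 and CD7 input the shares of 26 of 52 members overlapped, while 7 were lower and 19 higher in both SD7 libraries. In the Gr5a fraction 43 overlapped between SD7 and CD7, with 2 lower and 7 higher, and 33 between SD3 and CD7, with 7 lower and 12 higher. With 2 libraries against 3, some shares separate in the absence of any difference. These counts were not tested and alone do not show a changed make-up. Acp54A1 was singled out after its values were seen. It made up 0.48% and 0.70% of member counts in SD7 input, against 1.91%, 1.78% and 2.27% in CD7 input. In the Gr5a fraction its share was 0.71% and 0.83% in SD3 and 0.97% and 0.76% in SD7, against 1.98%, 1.72% and 2.46% in CD7. All 6 libraries from sugar-fed flies thus lay between 0.48% and 0.97%, below the 1.72% to 2.46% of all 6 CD7 libraries, in both RNA fractions. The mean share was 2.72-fold lower in the sugar libraries, a log2 ratio of −1.44, whereas the same ratio lay between −0.32 and 0.44 for the 36 other members with at least 10 counts in each of these 12 libraries. Input and Gr5a fraction of one diet come from the same kind of lysate and are not independent, and no test was made. No other member had a lower share in all of SD7 input, SD7 fraction and SD3 fraction, while Sfp60F and Sfp87B had a higher share in all of them. Acp54A1 has a single exon of 306 bases on 2R and overlaps no annotated gene. It had 86 and 405 counts in SD7 input, against 1686, 1309 and 2931 counts in CD7 input, and the log2 fold change of −3.01 ± 0.55 was the most negative of the 51 members but was not called (adjusted p = 0.12). In CD>CD the share was 3.59% in replicate 1 and 1.08% in replicate 2, which lie on either side of the CD7 range, and in SD>CD there were no counts of it.

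**Figure D5:**
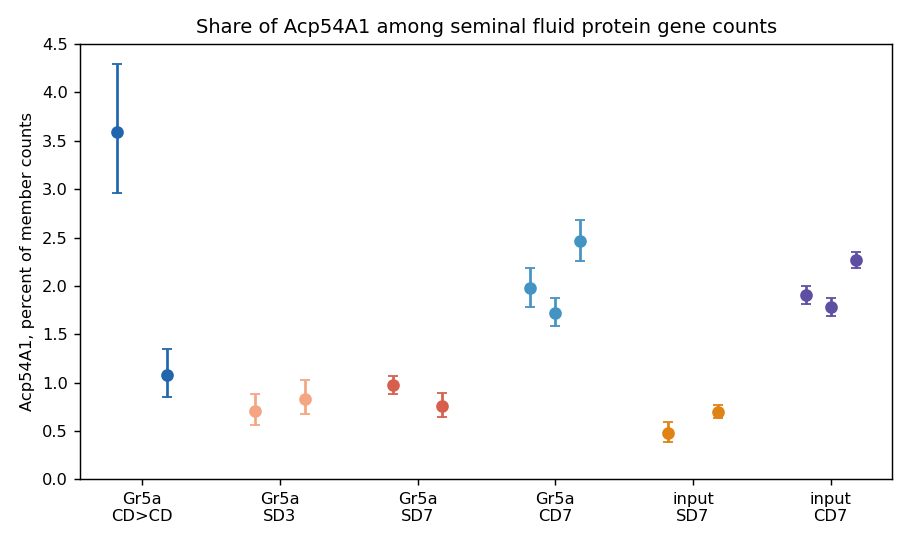
Acp54A1 counts as a percent of all seminal fluid protein gene counts (y axis) in 14 libraries (points) by group (x axis), with 95% exact binomial intervals that cover counting error only. The 6 SD3 and SD7 libraries lie at 0.48% to 0.97% and the 6 CD7 libraries at 1.72% to 2.46%, with the 2 CD>CD libraries at 3.59% and 1.08%.

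Between RNA fractions of day 7 the shares of 45 members overlapped, while 6 were lower and 1 was higher in all Gr5a libraries than in all input libraries. No test was made of these counts, so they are a description and alone do not show a different make-up. Dup99B took a mean of 4.34% of member counts in the 5 Gr5a libraries, against 3.09% in the 5 input libraries, and was the only member whose share was higher in every fraction library than in every input library. Lower in all fraction libraries were EbpII (4.23% against 6.71%), Sfp60F (3.12% against 5.01%), Acp53Ea (1.87% against 2.21%), Sfp24Bb (1.22% against 1.62%), Acp26Ab (0.76% against 1.01%) and SP (0.70% against 1.17%). EbpII and Sfp60F are neighbors of Ebp on 2R, and Ebp itself had a mean share of 18.4% in the fraction against 16.6% in the input, with overlapping libraries.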

How the data were processed

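Reads with quality under 30 had been discarded, and the authors aligned the rest with STAR to dm6 (BDGP6, Ensembl). The deposited values are raw gene counts, without normalization or pooling. The methods name HTSeq for counting, but the deposited layout is that of STAR. The same-strand column was used, which held 93.6% to 97.3% of strand-specific gene counts. Gr5a CD7 replicate 1 has a single column, taken as same-strand: at 102 and 89 genes where the columns of the other CD7 fraction libraries were far apart, it differed from their same-strand counts by a median of 0.33 and 0.19 on the log2 scale, and from the unstranded ones by 5.51 and 5.03. Rows that name no gene, present in 13 tables, held 32.1% to 58.4% of counts and were left out. Of 17489 genes, 17215 matched a symbol.

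Tests used edgeR 4.0.16 under R 4.3.3 (filterByExpr, TMM factors, quasi-likelihood F test, prior count 0.125, Benjamini-Hochberg adjustment over all tested genes), with calls at an adjusted p under 0.1, the study's threshold. The study used DESeq2; DESeq2 1.42.0 was an alternative here. The 11 Gr5a libraries were fitted together for diets, and the 10 day-7 libraries for fractions, input diets and their interaction. Standard errors (SE) are the log2 fold change over the square root of F. CPM is counts scaled to 1000000 gene counts per library, without TMM. Intervals are 95% exact and, like the floor of 3 counts, cover counting error only. Replicates were stated to be biological, with 300 heads each. The fits were tested on simulated data.

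Same-numbered CD7 libraries of fraction and input deviated together (correlations 0.34, 0.23 and 0.28), so these numbers pair. Members and lists were chosen with earlier results of these data known. Members given with values were the 3 marker genes, members of the lists of female-acting, bulb and duct and Mst57D genes, the 5 with the highest mean CPM, and up to 3 called members with the largest change in each direction per comparison. The rule also took in the tract lists and the 10 genes most like the members. Other names, such as Acp54A1 and Acp53C14c, were chosen after their values were seen. Alternatives changed the strand column, scaling, filter, prior count, threshold, tool, libraries fitted, pairing and control group.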

Additional observations from a re-analysis of the deposited data

Results flagged for a closer look

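The effect of returning from sugar to control diet (SD>CD over CD>CD) and the effect of 7 days of sugar (SD7 over CD7) differed in the Gr5a fraction by a direct test of the difference between them. Of 49 tested members 36 passed it, each with a lower value for the return, and the 2 effects share no control library. The difference on the log2 scale was −6.42 ± 0.62 for Acp36DE (adjusted p = 0.0014), −8.06 ± 0.64 for Ebp (adjusted p = 0.0011) and −9.51 ± 0.84 for Mst57Da (adjusted p = 0.0012), by the edgeR quasi-likelihood test. For Acp36DE, SD>CD and CD>CD differed by −6.41 and SD7 and CD7 by 0.01 on the same scale.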

How the results depend on the processing

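Counts of members called moved by more than 1.5 times as follows. For SD7 over CD7 in the input, 31 were called with DESeq2 and 15 with a replicate block, where 663 and 782 of all genes were lower. There were 2 each with DESeq2 size factors, at least 10 counts in every library, no filter, or without genes over 1% of a library. In these last fits 34 to 39 of all genes were lower. When each library was left out in turn the input count was highest without input SD7 replicate 2, which leaves 1 library in that group. For the Gr5a fraction over input in SD7, 7 were called with DESeq2 and 0 with these groups alone, with the replicate block, or at 0.05, with 0 to 9 when libraries were left out. For CD>CD over CD7, 5 were called with these groups alone, where only 25 of all genes were lower and 9 higher. The block called 0 members and 0 of all genes. With the unstranded column 13 were called, where 347 of all genes were lower and 474 higher, and 10 were called at 0.05. Leaving out single libraries moved this count in both directions. For SD3 over CD7, 4 were called with DESeq2, with these groups alone or with CD>CD as control. With these groups alone 110 of all genes were lower and 47 higher. The calls with single libraries left out are given above. DESeq2 called 2 members in the interaction. SD7 numbers 1 and 2 deviated in opposite directions (correlation −0.26): with crossed pairs, chosen after seeing the data, the block called 11 members in SD7 (10 lower, 1 higher, against 12.7% and 15% of all genes) and 27 higher in the interaction (7.2% of all genes). SD>CD numbers only name libraries, so no paired fit was made for them, and other replicate numbers across diets are shared numbers only. The block gave 46 calls for the fraction over input in CD7 and, apart from the counts given above, moved none by over 1.5 times. Leaving out 1 library gave 45 to 49 calls for the fraction over input in CD7, 28 to 40 for SD>CD over CD>CD, 43 to 49 for SD>CD over SD7 and 30 to 39 for the difference of effects. A minimum of 10 counts in every library left no member among the Gr5a libraries. The summed level in SD>CD averaged 12.6 CPM with the unstranded column, against 2.43 CPM, and without Ebp the means were 1790.3 CPM in CD7 input, 459 CPM in the CD7 fraction and 273 CPM in SD3. Of the members' log2 fold changes under the alternatives, 1613 kept their direction and side of the threshold, 77 newly passed it and 95 no longer did, while 2 changed sign or became 0: Sfp24Ba became 0.00 for SD>CD over CD>CD without CD>CD replicate 2 (−4.93 to 0.00 over single libraries left out), and Sfp96F 0.28 for CD>CD over CD7 without CD>CD replicate 1 (−1.35 to 0.28). The causes were not tested. At 22901154 counts, members under 3 counts in a library are at its floor.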

Other observations

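Jhedup, a juvenile hormone esterase relative in the list of male tract genes, differed more between replicates than between groups. It had 146 and 39 counts in SD>CD, against 20 and 25 counts in CD>CD, and 84 and 19 counts in SD3. In SD7 it had 7 and 278 counts in the Gr5a fraction, against 125 and 518 counts in the input. In CD7 it had 4, 13 and 318 counts in the Gr5a fraction, against 9, 25 and 709 counts in the input. Est-6, a carboxylesterase gene that tissues outside the male tract also use, had 3080 and 3478 counts in SD>CD, against 3963 and 10663 counts in CD>CD, and was called lower (log2 fold change −0.94 ± 0.29, edgeR adjusted p = 0.066).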
